A study of Mus musculus with 4 samples.

Results

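Messenger RNA levels of 10 genes of bone morphogenetic protein (Bmp) signaling were examined in hair cells and non-hair cells of the mouse cochlea, with and without gentamicin. The genes were the ligands Bmp2 and Bmp4, the secreted antagonist Nog, the decoy receptor Bambi, the inhibitory Smads Smad6 and Smad7, and the Id genes Id1, Id2, Id3 and Id4. They were taken by symbol from the 23420 genes listed in each deposited table, and all 10 were found and tested among 16077 genes. Cochleae came from postnatal day 1 Atoh1-GFP mice of the CD1 strain, in which an Atoh1 enhancer drives GFP in hair cells, and every organ was cultured overnight in medium with penicillin. Organs were then kept without gentamicin (control) or treated with 0.5 mM gentamicin, an aminoglycoside antibiotic that kills hair cells, for 3 h. GFP positive hair cells (HC) and GFP negative non-hair cells (NHC) were sorted from the same kind of organ, which gives 4 groups of 3 replicates. Cells with weak GFP were gated out, and the NHC population mixes supporting cells, cells of the epithelial ridges and surrounding tissue. Each level below is a normalized read score, which is the number of reads on a gene scaled per replicate by the authors, plus 1.

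Bmp ligands bind paired receptor kinases, which phosphorylate Smad1, Smad5 and Smad9. These enter the nucleus with Smad4 and switch on fast target genes, among them the Id genes and the inhibitory Smads, which in turn dampen the pathway. Id proteins lack a DNA-binding region and pair with E proteins such as Tcf3, Tcf4 and Tcf12, which keeps these from working with factors such as Atoh1, the master regulator of hair cell formation. In the cochlear duct Bmp4 is known as a ligand made at the outer border of the sensory epithelium.

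All 10 hair cell markers checked were higher in control HC than in control NHC, and their summed score in NHC was 233–314 against 11179–13439 in HC. Markers of supporting cells were not lower in HC as a list: their sum was 1683–1946 in control HC and 901–1537 in control NHC. Of the 10, 3 were called higher and 2 lower at an adjusted p below 0.05 (limma). Over all genes tested, 31.9% were called higher and 42.2% lower in this comparison. The sum of 6 neuron markers in control HC stood at 96.9–115% of the control NHC mean. Most of it was Nefm and Nefl, at mean scores of 699 and 338 in control HC. Of the 6, 0 were called higher in HC and 3 lower, against the same 31.9% and 42.2% of all genes. Their median log2 difference was -1.24, against -0.12 over all genes. Reads on genes numbered 22399803–28151367 per replicate. The study calls the replicates biological, but the sources used here do not say which organs went into each, so the p-values measure the spread between these samples. In such bulk samples, fewer cells of a type and less RNA per cell cannot be told apart.

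Upstream sequence is shown for the 3 members with a searched window free of annotated exons, Id4, Smad6 and Bmp4. In the results, Id4 was the member higher in HC and Smad6 the member that rose with gentamicin in HC. Bmp4 had the largest difference between populations. Each sequence is the 250 bases before the RefSeq start (GRCm38.p6), 5′ to 3′ on the gene's strand. Capitals mark matches on either strand to GTCT, the Smad binding element, to GGCGCC, a GC-rich Smad1/5 element, and to CANNTG, the E-box bound by E proteins. No 2 matches overlapped in these windows.
Id4, chr13:48260866-48261115, + strand: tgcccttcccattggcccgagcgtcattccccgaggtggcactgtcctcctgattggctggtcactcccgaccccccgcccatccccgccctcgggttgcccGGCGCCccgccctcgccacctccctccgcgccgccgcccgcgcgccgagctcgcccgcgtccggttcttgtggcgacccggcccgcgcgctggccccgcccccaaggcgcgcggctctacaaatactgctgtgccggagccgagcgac
Smad6, chr9:64022060-64022309, - strand: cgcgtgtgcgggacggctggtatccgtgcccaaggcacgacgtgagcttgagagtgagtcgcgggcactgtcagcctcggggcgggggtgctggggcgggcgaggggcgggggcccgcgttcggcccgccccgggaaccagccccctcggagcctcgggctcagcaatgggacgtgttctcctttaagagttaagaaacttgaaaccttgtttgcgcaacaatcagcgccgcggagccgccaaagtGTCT
Bmp4, chr14:46390670-46390919, - strand: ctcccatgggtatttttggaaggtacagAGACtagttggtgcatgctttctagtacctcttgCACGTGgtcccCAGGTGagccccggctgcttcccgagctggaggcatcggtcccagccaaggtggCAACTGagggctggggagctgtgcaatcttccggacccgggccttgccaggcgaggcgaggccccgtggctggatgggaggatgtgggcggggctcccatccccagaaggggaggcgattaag

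Among 32817 windows of this length in the RefSeq table, 82.9% held GTCT, 66.2% held CANNTG and 9.59% held GGCGCC. The Smad6 window had 1 GTCT, directly at the start. The Bmp4 window had 1 GTCT and 3 CANNTG, and the Id4 window had 1 GGCGCC and neither of the other motifs. These are letter matches, not measured binding sites. The table also held Id2 and Id3, whose windows lay within exons and are not printed. No window was searched for Id1, Smad7, Bmp2, Bambi or Nog.

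Control HC and control NHC were compared first, which asks where these genes are expressed before any drug. Of the 10 members, 8 were lower in HC, 1 was higher and Bmp2 did not pass the test. A gene was called here at an adjusted p below 0.05, and over all genes tested 42.2% were called lower and 31.9% higher. The median log2 difference was -1.12 over the members and -0.12 over all genes. With median-of-ratios scaling the median of all genes was -0.01, and 8 members in place of 9 were called.

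**Figure D1:**
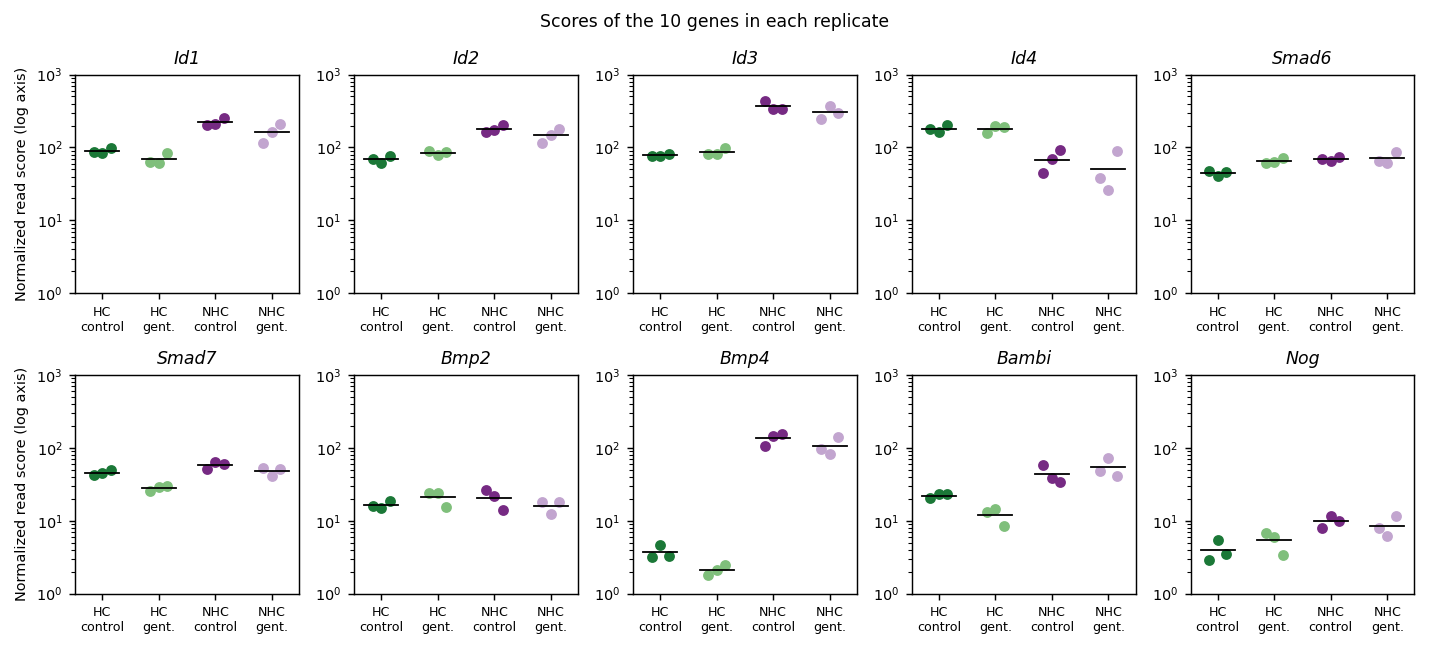
Normalized read score (log axis) of each of the 10 genes in the 3 replicates of each group; points are replicates, bars are means, HC are hair cells, NHC are non-hair cells and gent. is gentamicin. Bmp4 sits between 1.80 and 4.68 in HC and between 82.3 and 156 in NHC, while Id4 is the gene whose HC points, 156 to 200, all lie above its NHC points.

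Bmp4 (chr14:46383520-46390669, - strand in mm10) had by far the widest gap of the members. Its scores in control HC were 3.14, 4.68 and 3.29. In control NHC they were 104, 144 and 156, and the log2 difference was -5.19 (SE 0.23, adjusted p = 3.3e-09, limma). With the offset of 1 replaced by 0.1 the difference was -5.59, so the offset understates it. In reads, control HC held 49, 86 and 50 on Bmp4, against 2498–4011 in control NHC. With the offset taken off, Bmp4 in control HC stood at 1.60–2.75% of its control NHC mean. Sums of marker lists for cells other than hair cells stood at more than this in the same HC replicates. They were 4.58–8.98% for the 12 endothelial markers and 7.56–11.1% for the 9 mesenchyme markers. The 5 pericyte markers stood at 9.53–16.7% and the 8 macrophage markers at 7.67–10.5%. Pdgfra, at mean scores of 277 in control HC and 341 in control NHC, carried much of the mesenchyme sum. C1qb, at 3.64 and 9.40, carried much of the macrophage sum. Some single markers stood in the range of Bmp4, such as Emcn at 4.56 and 144. The sums are therefore not shares of other cells, and the paper reports high purity of its sorted hair cells. No endothelial, mesenchyme or pericyte marker was at 0 reads in any HC replicate. Whether Bmp4 reads in HC came from other cells in the sort was not tested.

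Bmp2, the other ligand among the members (chr2:133552159-133562885, + strand), was at a similar score in both populations. Control HC scored 15.8, 14.8 and 18.6, within the wider span of control NHC at 26.2, 21.7 and 14.1. The difference was -0.29 (SE 0.25, adjusted p = 0.31).

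Nog, which binds Bmp ligands and keeps them from their receptors (chr11:89300638-89302332, - strand), had few reads. Its scores were 2.91, 5.45 and 3.54 in control HC and 8.07, 11.6 and 10.04 in control NHC. The ranges did not overlap, and Nog was lower in HC, with a log2 difference of -1.36 (SE 0.32, adjusted p = 0.0022). Bambi, a receptor-like protein without a kinase domain (chr18:3507923-3516404, + strand), scored 20.2, 23.0 and 23.3 in control HC and 57.7, 38.8 and 34.3 in control NHC. It was lower in HC, with a difference of -0.94 (SE 0.26, adjusted p = 0.0057), again with no overlap. A near-identical copy, Bambi-ps1, is counted apart, and reads shared between the copies could be split.

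Among the Id genes, Id3 differed most. Id3 (chr4:136143497-136145755, + strand) scored 77.0, 75.9 and 81.3 in control HC and 430, 340 and 332 in control NHC, a log2 difference of -2.22 (SE 0.14, adjusted p = 7.6e-08). Id1 (chr2:152736251-152737410, + strand) scored 86.3, 83.8 and 99.9 against 200, 212 and 250, a difference of -1.29 (SE 0.19, adjusted p = 7.7e-05). Id2 (chr12:25093799-25097140, - strand) scored 69.0, 62.2 and 77.2 against 163, 175 and 202, a difference of -1.38 (SE 0.15, adjusted p = 4.7e-06). For these 3 genes every HC replicate was below every NHC replicate.

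Id4 (chr13:48261228-48266026, + strand) went the other way. Its scores were 177, 165 and 200 in control HC and 44.5, 69.0 and 91.4 in control NHC, and it was higher in HC by 1.46 (SE 0.37, adjusted p = 0.0038). The HC replicates lay close together and the NHC replicates were spread over a wider range. The part of supporting cells, whose marker sum was also higher in control HC, in this difference was not tested. Antisense genes overlap Id4 and Bmp4 in the annotation. The strand setting of the counting is not given in the sources used here, so reads from the opposite strand cannot be told apart.

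The makeup of the Id family was compared per kilobase of exon, which makes levels of different genes comparable. Id4 took 23.6–24.3% of the summed Id score per kilobase in control HC and 2.31–4.64% in control NHC. Id3 took 21.04–23.1% in control HC and 36.5–49.0% in control NHC. The shares of Id1 (38.8–40.0% and 35.1–42.5%) and Id2 (13.9–14.7% and 13.6–16.3%) overlapped between the populations. The summed Id score per kilobase was 181–213 in control HC and 460–506 in control NHC.

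**Figure D2:**
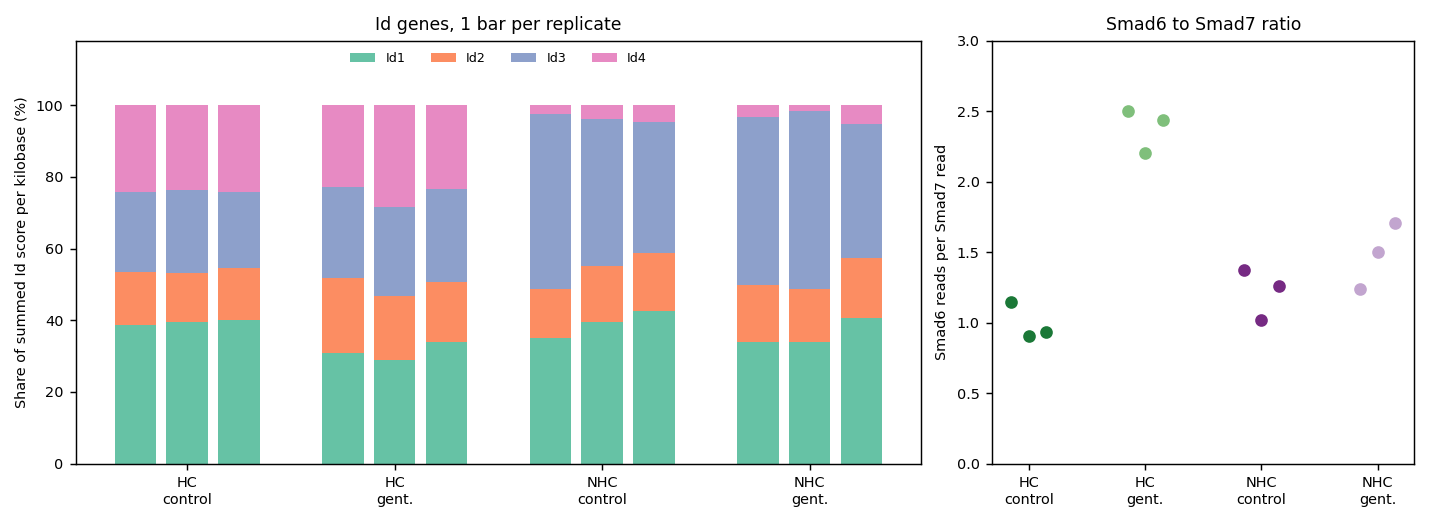
Left, share of the summed Id score per kilobase (%) taken by each Id gene, 1 stacked bar per replicate and 3 replicates per group; right, Smad6 reads per Smad7 read in each replicate, shown as points. Id4 takes at least 22.9% in every HC bar and at most 5.17% in every NHC bar, and the Smad6 to Smad7 ratio is 2.20–2.50 in gentamicin-treated HC and at most 1.71 in the other groups.

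Both inhibitory Smads were lower in control HC. Smad6, which acts mainly on Bmp receptors and Smad1/5 (chr9:63953076-64022059, - strand), scored 48.0, 41.1 and 45.7 in control HC and 69.6, 64.6 and 75.2 in control NHC. The difference was -0.64 (SE 0.13, adjusted p = 0.00067). Smad7, which acts on Tgf-β and Bmp receptors alike (chr18:75367529-75395935, + strand), scored 42.1, 45.1 and 48.9 against 50.8, 63.2 and 59.9. Its difference of -0.35 (SE 0.12, adjusted p = 0.019) was the smallest called, and it was lost with median-of-ratios scaling (-0.23, adjusted p = 0.10) and in 3 of 6 fits that left out a replicate.

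Ranked by mean score per kilobase in control HC, Id1 stood at 76.7, followed by Id4 at 46.7 and Id3 at 43.0, whose replicates overlapped. Id2 (28.1), Smad6 (13.7) and Smad7 (9.81) followed without overlap. Bmp2 (4.33) and Bambi (4.17) overlapped each other, as did Nog (1.75) and Bmp4 (1.204) at the bottom. In control NHC the order began with Id3 at 204 and Id1 at 190, which overlapped, then Id2 at 73.6 and Bmp4 at 59.4, which also overlapped. Smad6 (21.5), Id4 (17.5), Smad7 (12.6), Bambi (8.40), Bmp2 (5.53) and Nog (5.26) each overlapped the next gene in the order. Bmp4 was thus the last of the 10 in HC and the fourth in NHC. With the longest transcript as the length, Id3 stood above Id4 in control HC.

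The effect of 3 h of gentamicin on HC was compared next. Smad6 rose, and Smad7, Bmp4 and Bambi fell. The other 6 members were not called, Bmp2, Nog and all 4 Id genes among them. A gene was called at the criteria of the study, an unadjusted p below 0.01 and a fold change above 1.2, at which 12.7% of all genes tested were higher and 14.8% lower. The members thus gave 1 higher and 3 lower of 10, with a median log2 change of 0.07 against -0.09 over all genes. With scaling by total reads the same numbers of members were called, while the split over all genes turned from 2037 higher and 2381 lower to 2774 higher and 1591 lower.

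Smad6 scored 48.0, 41.1 and 45.7 in control HC and 62.1, 63.4 and 71.9 in treated HC. Every treated replicate was above every control, and the log2 change was 0.55 (SE 0.13, adjusted p = 0.0068), or 1.47-fold. Smad7 scored 42.1, 45.1 and 48.9 in control HC and 25.4, 29.3 and 30.1 in treated HC. Here every treated replicate was below every control, with a change of -0.68 (SE 0.12, adjusted p = 0.0016), or 1.61-fold lower. Both calls held in all 6 fits that left out a replicate and with voom weights. The treated HC level of Smad6 came to 88.9–103% of the control NHC mean, from 58.3–68.3% in control HC. Smad7 went from 72.1–84.0% to 42.9–51.0%.

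The 2 inhibitory Smads moved in opposite directions, so their ratio within a replicate, which no scaling can alter, was also computed. It was chosen after the values were seen. Smad6 reads per Smad7 read numbered 0.909–1.14 in control HC and 2.20–2.50 in treated HC, a log2 change of 1.26. The exact two-sided permutation test gave p = 0.1, the smallest possible with 3 against 3. In NHC the ratio was 1.02–1.38 in control and 1.24–1.71 in treated replicates, a log2 change of 0.28 (exact permutation p = 0.3), and the groups overlapped.

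Bambi scored 20.2, 23.0 and 23.3 in control HC and 13.1, 14.4 and 8.48 in treated HC. All treated replicates were lower, the third most of all, and the change was -0.92 (SE 0.26, adjusted p = 0.018). The call was lost without control replicate 2, control replicate 3 or treated replicate 3, where the change was -0.89, -0.89 and -0.69, and with voom weights (-0.91, adjusted p = 0.085). The copy Bambi-ps1 was near its floor, with scores of 1.85–2.16 in control and 1.76–2.29 in treated HC.

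Bmp4 in HC rested on few reads, 49, 86 and 50 in control and 19, 27 and 41 in treated replicates. The scores were 3.14, 4.68 and 3.29 in control and 1.80, 2.13 and 2.47 in treated HC, and the change was -0.79 (SE 0.23, adjusted p = 0.023). With an offset of 0.1 it was -1.18. The call was lost without control replicate 2 (-0.61), treated replicate 1 (-0.67) or treated replicate 2 (-0.79), and with voom weights (-1.14, adjusted p = 0.26). As a share of the control NHC mean, Bmp4 in HC went from 1.60–2.75% to 0.598–1.10%.

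Several summed marker lists of other cell types were lower in the same treated HC. Relative to the control NHC mean, mesenchyme markers went from 7.56–11.1% to 5.17–6.29%, pericyte markers from 9.53–16.7% to 3.995–5.62% and endothelial markers from 4.58–8.98% to 2.69–4.51%. Of these lists, 3 of 9 mesenchyme, 3 of 5 pericyte and 1 of 12 endothelial markers were called lower, against 14.8% of all genes tested. The endothelial count was not above that share. Schwann cell and glia markers went from 32.8–40.4% to 16.8–27.7%, with 3 of 6 called lower. Supporting cell markers went from 144–166% to 74.8–123%, with the Notch targets and modulators Hes5 (-2.02) and Lfng (-1.17) called among 10. Melanocyte markers went from 39.0–51.6% to 27.5–32.8%. Macrophage markers overlapped between the groups, at 7.67–10.5% and 9.60–13.7%. The neuron sum overlapped too, at 96.9–115% and 91.1–104%, and most of it was Nefm (0.02) and Nefl (-0.37). The median log2 change of the 6 neuron markers was -0.60 against -0.09 over all genes, with 0 called. Elavl3 gave -1.51, Prph -1.10, Tubb3 -0.83 and Snap25 -0.05. The hair cell markers' own sum was 12940–13439 in control and 11179–12337 in treated HC, and 1 of 10 was called lower. Control replicate 2 was the highest of the 6 HC replicates for Bmp4 and for the mesenchyme, pericyte and endothelial sums. Bambi did not follow these sums among treated HC. Treated replicate 3 was the lowest for Bambi, at 17.6% of the control NHC mean. The same replicate was the highest treated one for Bmp4 and for the mesenchyme, pericyte, Schwann cell and supporting cell sums. The endothelial sum was highest in treated replicate 2. The part of these cells in the changes of Smad7, Bmp4 and Bambi was not tested.

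**Figure D3:**
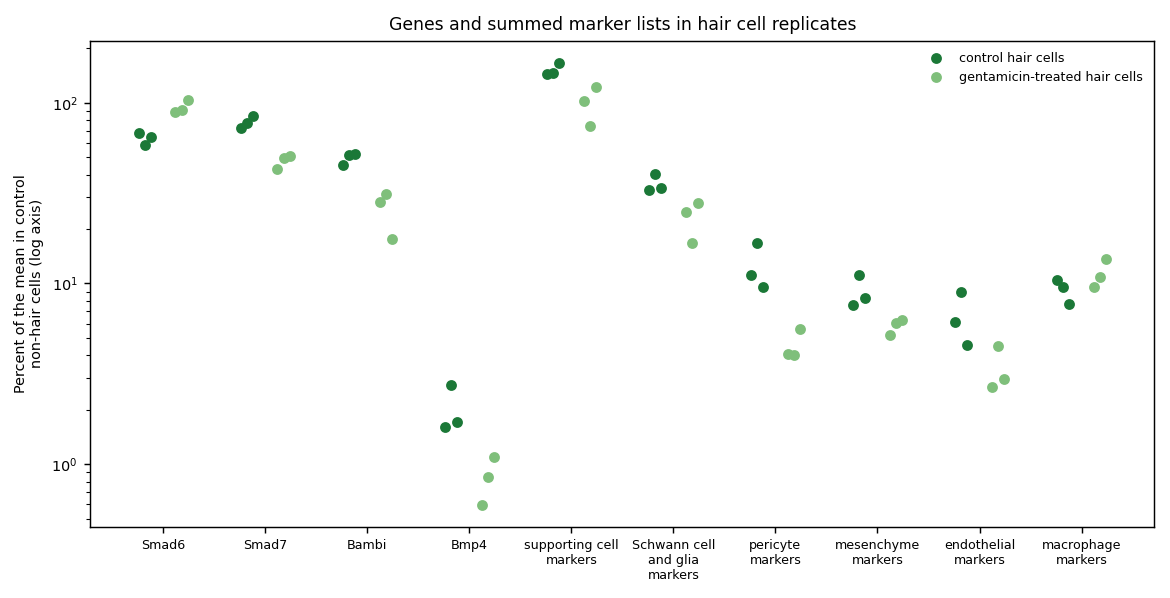
Score less the offset of 1 in each HC replicate as a percent of the control NHC mean (log axis), for Smad6, Smad7, Bambi and Bmp4 and for the summed marker lists of 6 other cell types; dark points are control and light points gentamicin-treated HC. In each replicate Bmp4 lies below every marker list shown, and its treated points are lower along with those of the mesenchyme, pericyte, endothelial, Schwann cell and supporting cell lists.

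The Id genes gave smaller differences. Id1 scored 86.3, 83.8 and 99.9 in control and 64.2, 60.8 and 84.5 in treated HC, a change of -0.38 (SE 0.19, adjusted p = 0.15) with 1 treated replicate inside the control range. Id2 scored 69.0, 62.2 and 77.2 in control and 90.1, 78.5 and 86.5 in treated HC. All treated Id2 replicates were above the controls, but the change of 0.29 (SE 0.15, adjusted p = 0.15) did not pass. Id3 had a change of 0.15 (SE 0.14, adjusted p = 0.46), and Id4 one of -0.0028 (SE 0.37, adjusted p = 1.00) whose sign turned with the scaling. The share of Id1 in the summed Id score per kilobase was 38.8–40.0% in control and 28.9–34.04% in treated HC, while the Id sums overlapped at 181–213 and 176–212.

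Bmp2 and Nog were not called in HC either. Bmp2 scored 15.8, 14.8 and 18.6 in control and 24.1, 24.1 and 15.6 in treated HC, where 2 replicates were above the controls and 1 was among them. Its change was 0.35 (SE 0.25, adjusted p = 0.31). Nog scored 2.91, 5.45 and 3.54 in control and 6.82, 5.90 and 3.43 in treated HC, with the same pattern and a change of 0.43 (SE 0.32, adjusted p = 0.32).

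**Figure D4:**
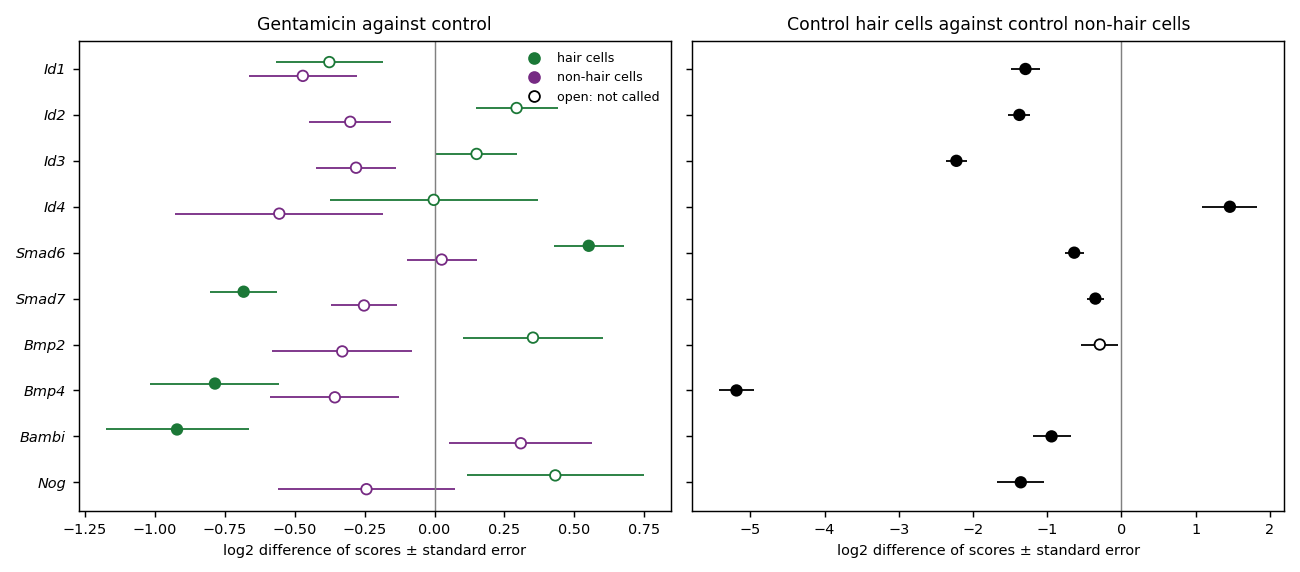
Left, log2 difference of scores between gentamicin-treated and control replicates in HC (green) and NHC (purple); right, the difference between control HC and control NHC; bars are limma standard errors, filled points passed the criteria of that comparison and open points did not. In HC the filled points are Smad6 at 0.55, Smad7 at -0.68, Bmp4 at -0.79 and Bambi at -0.92, and in NHC all points are open.

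In NHC, 0 of the 10 members were called by limma at the same criteria, where 3.18% of all genes were higher and 2.26% lower. With voom weights the count was also 0, and at an unadjusted p below 0.05 by limma there was 1, Id1. How many of all genes passed 0.05 was not computed. Id1 scored 200, 212 and 250 in control NHC and 116, 163 and 210 in treated NHC, a change of -0.47 (SE 0.19, adjusted p = 0.25). Treated replicates spread more than controls here. Id2 scored 163, 175 and 202 in control and 115, 149 and 180 in treated NHC (-0.30, SE 0.15), and Id3 scored 430, 340 and 332 in control and 247, 366 and 299 in treated NHC (-0.28, SE 0.14). Control and treated ranges overlapped for all 10 genes, and the share of all genes with such overlap was not computed.

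Treated NHC replicate 3 was closest to the controls for Id1, Id2 and Id4. Without it, 3 members were called, Id1 (-0.67), Id2 (-0.45) and Id4 (-1.06). Without treated replicate 2, Id3 was called (-0.42). With the replicate number as a block, Id1 was called. The pooled result of 0 therefore turned on single replicates.

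Id4 in NHC varied from 44.5 to 91.4 among controls and from 26.2 to 89.2 among treated replicates. Supporting cell markers summed to 901, 1071 and 1537 in the control replicates, where Id4 scored 44.5, 69.0 and 91.4. In the treated replicates they summed to 998, 629 and 1266, where Id4 scored 37.8, 26.2 and 89.2. The replicate lowest in the sum was the lowest in Id4 in both NHC groups, and the highest was the highest. Neuron markers were also lowest, at 235, in treated NHC replicate 2. In HC the match was not seen. Supporting cell markers summed to 1200, 875 and 1434 in the treated HC replicates, where Id4 scored 156, 196 and 191. Their sum went from 1683–1946 in control HC to 875–1434 in treated HC, while Id4 changed by -0.0028. The part of the cell mixture in the spread of Id4 was not tested.

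The remaining members in NHC gave no call. Smad6 scored 69.6, 64.6 and 75.2 in control and 65.8, 61.6 and 88.0 in treated NHC (0.03, SE 0.13), and Smad7 scored 50.8, 63.2 and 59.9 in control and 53.2, 41.3 and 51.9 in treated NHC (-0.25, SE 0.12). Bmp4 scored 104, 144 and 156 in control and 96.3, 82.3 and 140 in treated NHC (-0.36, SE 0.23). Bambi scored 57.7, 38.8 and 34.3 in control and 48.5, 73.4 and 41.0 in treated NHC (0.31, SE 0.26). Bmp2 changed by -0.33 (SE 0.25) and Nog by -0.24 (SE 0.32), neither beyond the spread between replicates. Endothelial markers in the NHC samples summed to 444–450 in control and 497–581 in treated replicates. Of the 12, Cldn5, Sox17 and Robo4 were called higher, against 3.18% of all genes tested. Pecam1 (-0.27) and Flt1 (-0.19) went the other way and were not called. The median log2 change of the 12 was 0.27.

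Whether the response differed between the populations was tested with the interaction. Bambi alone passed an adjusted p below 0.05, with a lower response in HC than in NHC (difference -1.23, SE 0.36, adjusted p = 0.045). Over all genes tested, 6.57% had a lower and 6.85% a higher response in HC. The call held in 2 of 12 fits that left out a replicate, and it was lost with scaling by total reads (-1.16, adjusted p = 0.053). Smad6 had a difference of 0.53 (SE 0.18, adjusted p = 0.072), Id2 one of 0.59 (SE 0.21, adjusted p = 0.080) and Smad7 one of -0.43 (SE 0.17, adjusted p = 0.11). With the replicate number as a block, Smad6 (adjusted p = 0.029) and Id2 (adjusted p = 0.043) passed along with Bambi. For Smad7 and Bmp4 a difference in response between HC and NHC was not shown, and for Smad6 it depended on the block and the scaling. With scaling by total reads Smad6 passed (0.60, adjusted p = 0.050) and Bambi did not.

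The rest of the pathway was read from lists of 58 genes, of which 50 were tested. In treated HC, 5 were called higher and 10 lower, against 12.7% and 14.8% of all genes, and the median change of the 50 was -0.20. With scaling by total reads 5 were higher and 6 lower. In NHC, limma called 0 of the 50, where 3.18% of all genes were higher and 2.26% lower. At an unadjusted p below 0.05 by limma, 1 was higher and 2 were lower. The share of all genes below 0.05 was not computed, so this count has no background beside it.

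Over all genes tested, 14.8% were called lower and 12.7% higher in treated HC. Among the other ligands, 2 of 8 were called lower in HC. These were Gdf6 (-1.21, adjusted p = 0.0020) and Bmp6 (-0.72, adjusted p = 0.032), while Bmp7, the ligand of the list with the highest mean score, gave -0.29. Among 10 receptors and co-receptors, 5 were lower and 1 was higher. The type II receptors Acvr2b (-0.94) and Bmpr2 (-0.38), the type I receptors Acvrl1 (-0.83) and Bmpr1b (-0.49) and the co-receptor Rgmb (-0.70) fell, and the type I receptor Acvr1 rose by 0.32. Bmpr1a, the receptor with the highest mean score, gave -0.13 and was not called. Acvrl1 is known from endothelium and was at a mean score of 3.91 in control HC, 2.20 in treated HC and 38.9 in control NHC, and it went down along with the endothelial marker sum given above. Rgmb, at 12.4, 7.69 and 57.1 in these groups, was also lower in HC than in NHC. The other receptors that fell were not lower in control HC than in control NHC. By log2 difference between these groups, Bmpr1b (2.27) and Acvr2b (0.68) were called higher in HC, and Bmpr2 (0.13) was not called. The part of other cell types in the falls of all 5 receptors, and of Fstl3 and Hey1 described next, was not tested.

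The signal-carrying Smads were not called in HC, 0 of 4 in either direction by limma, against 12.7% higher and 14.8% lower over all genes. At an unadjusted p below 0.05 there were also 0, and the share of all genes was not computed there. Smad1 gave 0.09, Smad5 0.00 and the shared partner Smad4 -0.02, with standard errors of 0.10, 0.19 and 0.08. Between the control populations Smad1 (-1.89) and Smad5 (-1.61) were lower in HC, and Smad4 (-0.04) did not differ beyond its error. Of 16 secreted antagonists and their proteases, 1 was called in treated HC, the activin and Bmp binding protein Fstl3 (-0.74). Fstl1, with the highest mean score of that list, gave -0.66 and was not called.

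Intracellular inhibitors were the list with the most genes higher, 3 of 7, against 12.7% of all genes tested. Tob1, which binds Smads (0.76, adjusted p = 0.0017), Lemd3, an inner nuclear membrane protein that binds Smads (0.60, adjusted p = 0.0012), and the Smad corepressor Skil (0.50, adjusted p = 0.025) rose, and the related corepressor Ski fell by 0.32. Of 5 other target genes tested, the homeobox gene Msx1 rose by 0.92 (adjusted p = 0.0036) and Hey1, which is also a Notch target, fell by 1.32 (adjusted p = 0.0056). Of the E proteins that pair with Id proteins, Tcf12 rose by 0.43, Tcf3 fell by 0.31 and Tcf4 was not called.

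**Figure D5:**
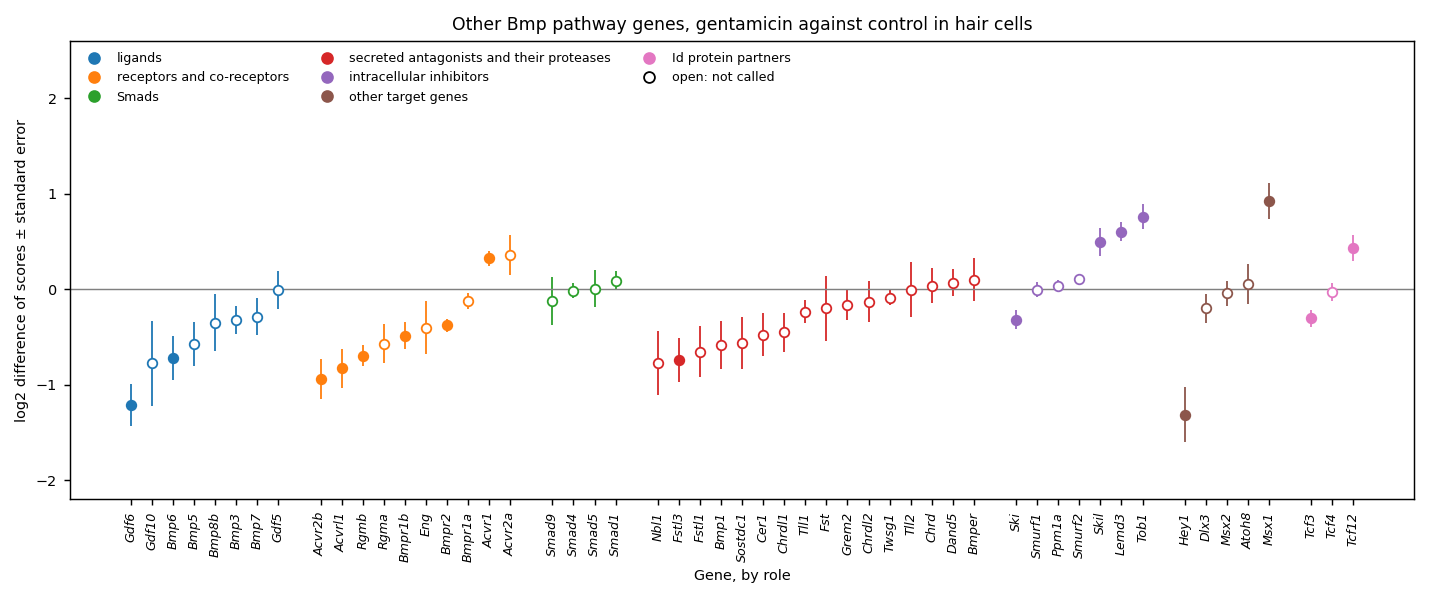
Log2 difference of scores between gentamicin-treated and control HC for the 50 tested genes of the Bmp pathway lists and 3 E protein genes, grouped by role; bars are limma standard errors and filled points passed the criteria. Filled points among receptors are 5 below and 1 above 0, and among intracellular inhibitors 3 above and 1 below.

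The interaction was called for 7 of the 50 genes, 3 higher and 4 lower, against 6.85% higher and 6.57% lower over all genes, so the count is near the background. With scaling by total reads 4 were higher and 3 lower. Gdf6 (-1.15), Bmpr2 (-0.42), Rgmb (-0.57) and the antagonist Cer1 (-1.14) had a lower response in HC than in NHC, and Tob1 (0.93), Lemd3 (0.52) and Msx1 (0.92) a higher one. Tcf3 also differed (-0.48). Cer1 was near the floor of 1, at mean scores of 3.27 in control and 2.35 in treated HC. In NHC it was at 1.83 in control and 2.80 in treated replicates, and it was called in neither population alone. Between the control populations, 12 of the 50 were higher and 32 lower in HC, where 31.9% of all genes were higher and 42.2% lower. The secreted antagonists and their proteases were lower in HC for 14 of 16, and the intracellular inhibitors higher for 4 of 7 and lower for 2.

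Genes with the most similar pattern were ranked by the root mean square difference of centred log2 scores over the 12 replicates. Nearest to Smad6 were Tapbpl (0.13), Arf6 (0.14) and Ctrl (0.14). Nearest to Id1 were Irf2bpl (0.16), Lrrtm2 (0.17) and Luzp2 (0.18). Nog was followed most closely by Tmem169 (0.23), Gsta3 (0.25) and Eif5a2 (0.26). For Bmp4 the nearest were Enpep (0.27), Col15a1 (0.30) and Trf (0.34). The measure grows with the size of a gene's own differences, so it does not rank the closeness of match between members.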

How the data were processed

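Polyadenylated RNA of sorted cells was sequenced as single-end reads. The authors trimmed the reads, aligned them to mm10 with TopHat 2 in PartekFlow and deposited a normalized read score per gene and replicate. RPKM is named in the methods, yet the values show no division by gene length. Annotation, scaling factor and lane of each library are not given in the sources used here. Reads were recovered by taking off 1 and dividing by the step of the low values, of which 82.9–83.9% (up to 20 reads) were then whole within 0.1 read.

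Genes with 100 or more recovered reads in all were tested. limma 3.58.1 (R 4.3.3) was run on log2 scores with all 4 groups in 1 model and trended empirical Bayes moderation, and adjusted p-values are Benjamini-Hochberg values over the genes tested. The procedure was tested on simulated data. Positions and exon lengths came from GENCODE M21, and tables were handled with Python 3.11.15 and pandas 2.3.3.

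The members and lists were chosen with earlier results of these data known. All members were named. Of the other pathway genes, those called and the highest scoring per role were named, and for Id1, Smad6, Bmp4 and Nog the 3 nearest genes. Smad1, Smad4, Cer1 and the marker genes were added after their values were seen.

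Same-numbered replicates of control HC and control NHC deviated together (r = 0.216, 0.316 and 0.200), and those of treated HC and treated NHC did not in all pairs (r = 0.377, -0.039 and -0.018). The labels do not say what a number marks. With the replicate block 9 members were called between the controls, as without it. Alternatives covered scaling, offset, filter, block, groups fitted, voom weights, thresholds, transcript length and each replicate left out.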

Additional observations from a re-analysis of the deposited data

Results flagged for a closer look

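The response of Bambi to gentamicin differed between hair cells and non-hair cells by -1.23 on the log2 scale (limma interaction, adjusted p = 0.045). Bambi was lower in 3 of 3 treated HC replicates than in any control HC replicate, and in NHC the treated replicates of 48.5, 73.4 and 41.0 overlapped the controls of 57.7, 38.8 and 34.3. Over the alternatives other than left-out replicates, the adjusted p ranged from 0.030 to 0.085, and over the 12 fits that left out a replicate from 0.025 to 0.10.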

How the results depend on the processing

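Over all alternatives, 565 recomputed log2 differences of the members kept their direction and side of the threshold, 25 lost the call, 11 gained it and 9 changed sign. Sign changes concerned Id4 in hair cells (0.010 with median-of-ratios scaling, 0.094 with scaling by total reads, 0.093 with voom weights, and -0.067 to 0.10 with a replicate left out), the interaction of Id1 (-0.13 to 0.30 with a replicate left out) and Smad6 in non-hair cells (-0.13 to 0.13 with a replicate left out). None of these was called in either setting, and the causes were not tested.

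The count of 4 members called in hair cells was 2 with voom weights and 2 to 4 with a replicate left out, and at a fold above 1.5 it was 3, without Smad6. The count of 0 in non-hair cells was 0 to 3 with a replicate left out. The interaction count of 1 was 0 with no minimum of reads, 0 with voom weights, 0 at an adjusted p below 0.01 and 0 to 3 with a replicate left out. The replicate block gave 1 in non-hair cells (Id1) and 3 for the interaction (Bambi, Id2 and Smad6), with 4 in hair cells as before. Same-numbered control and treated replicates did not deviate together in hair cells (r = 0.037 to 0.052) or all alike in non-hair cells (r = -0.23 to 0.68). With 3 replicates a group, these values cannot show whether same-numbered replicates shared organs. Pathway list counts were recomputed under the 2 other scalings only, and without left-out replicates. Scaling by total reads turned the calls over all genes in non-hair cells from 512 higher and 363 lower to 634 and 282, and those of the interaction from 1102 and 1056 to 1500 and 716.

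Depth limited Bmp4 and Nog in hair cells, with 19–86 and 44–141 reads per replicate. With 3 replicates a group, the exact permutation test cannot go below p = 0.1.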
